A study of Mus musculus with 6 samples.

Results

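The NSL (non-specific lethal) complex is a histone acetyltransferase assembly, and the transcripts of 10 of its subunit genes were followed here in mouse oocytes matured in culture with or without metformin. The genes were Kansl1, Kansl1l, Kansl2, Kansl3, Kat8, Mcrs1, Phf20, Wdr5, Hcfc1 and Ogt, 10 of the 55487 genes in the count table. Each matched 1 identifier by its GENCODE M21 symbol. Kansl1l is counted among the subunit genes here as the paralogue of Kansl1. The complex was chosen by the read counts of Kansl2, already seen to be lower in the metformin libraries, and its partners were taken by membership and not by their values. Differences between metformin and control are therefore given for these genes as a description, and the test of all genes appears only as counts of genes beside the same counts over the whole table.

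Fully grown germinal-vesicle oocytes came from females primed with 10 IU of pregnant mare serum gonadotropin. They were collected 46 to 48 h later, freed of cumulus cells and cultured in M16 medium for 16 h to metaphase II. The mice are called aged in the series title, with neither age nor strain in the sample labels. The 3 control libraries are labelled control, and the 3 metformin libraries come from oocytes cultured with metformin, a biguanide antidiabetic drug. The protocol lists 10, 20 and 50 μM without saying which was sequenced or how many oocytes made a library.

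KAT8, also called MOF, is the acetyltransferase that modifies lysines of histone H4. It works in a pair of assemblies, the MSL complex and the NSL complex, and in the NSL complex it acts at promoters of widely expressed genes. KANSL1 is the scaffold that holds KAT8 and WDR5, and KANSL2, KANSL3, MCRS1, PHF20, HCFC1 and OGT complete the assembly. Loss of Kat8 from mouse oocytes impairs their development, and KANSL1, KANSL3 and MCRS1 also take part in spindle assembly, a process that oocytes go through in meiosis.

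Libraries held between 8622281 and 10588292 counted reads. All 10 oocyte markers, such as Gdf9 and Zp3, were abundant, with summed levels of 33441 to 49072 CPM (the read count scaled to library size with the TMM method). Of the 10 cumulus and granulosa markers 0 were abundant enough to be tested. Their summed level was 1.47 to 4.03 CPM, without order between the groups, and Amh, Foxl2 and Ptx3 had no read in any library. Control replicate 1 stood apart in blood and stroma markers. It held 281 haemoglobin reads against 0 to 2 in the other libraries, and a summed level of 66.0 CPM for the 10 markers of that list against 26.9 to 38.2 CPM.

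Promoter sequences of Kansl2, Mcrs1 and Kat8 are shown because Kansl2 was the subunit gene whose groups did not overlap, Mcrs1 lies on the same chromosome and had overlapping groups, and Kat8 encodes the catalytic subunit. Each runs 5′ to 3′ on the strand of its gene, from 250 bases before to 30 bases after the RefSeq start (GRCm38.p6). For Kat8 this is the more upstream of its listed starts. Capitals mark matches on either strand to CCAAT (the NF-Y motif), GGGCGG (the GC box), CCGGAAGT (an ETS motif), AANATGGC (the YY1 core) and GCGCA and GCGC with any 1 base between them (the NRF1 motif). The Kansl2 window is chr15:98534240-98534519, that of Mcrs1 chr15:99251932-99252211 and that of Kat8 chr7:127912267-127912546.
Kansl2: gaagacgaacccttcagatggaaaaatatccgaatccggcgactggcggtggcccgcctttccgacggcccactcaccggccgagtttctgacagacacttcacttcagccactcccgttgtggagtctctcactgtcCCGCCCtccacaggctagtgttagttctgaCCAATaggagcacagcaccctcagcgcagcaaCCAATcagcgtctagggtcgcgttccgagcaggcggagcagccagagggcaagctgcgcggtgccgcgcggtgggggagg
Mcrs1: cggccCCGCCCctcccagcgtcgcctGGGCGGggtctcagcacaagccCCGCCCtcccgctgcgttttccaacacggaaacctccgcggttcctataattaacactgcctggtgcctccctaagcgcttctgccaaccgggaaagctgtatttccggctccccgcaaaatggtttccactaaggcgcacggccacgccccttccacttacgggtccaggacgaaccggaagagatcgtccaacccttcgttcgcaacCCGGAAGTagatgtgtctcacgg
Kat8: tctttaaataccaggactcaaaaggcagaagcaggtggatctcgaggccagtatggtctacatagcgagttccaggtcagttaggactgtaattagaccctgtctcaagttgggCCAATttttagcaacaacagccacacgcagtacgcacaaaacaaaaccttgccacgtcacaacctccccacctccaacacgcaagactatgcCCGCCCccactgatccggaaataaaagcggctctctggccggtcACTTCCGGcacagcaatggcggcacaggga

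The Kansl2 promoter held a pair of CCAAT matches, at -82 and -50 from the start, and 1 GC box match, and beyond the bases shown it held AAGATGGC, a match to the YY1 core, at 32. Mcrs1 held 3 GC box matches and an ETS match, and the Kat8 window shown held 1 CCAAT, 1 GC box and 1 ETS match. The whole table of promoters, searched from 250 bases before to 50 after the start, held 32851 windows of 300 bases, of which 15 belonged to the 10 subunit genes, some of them overlapping windows of 1 gene. Of the 10 genes, 9 had a GC box match in at least 1 window (13 of 15 windows, against 35.7% of all windows), 6 a CCAAT match (7 of 15 windows, against 37.4%) and 3 a YY1 match (3 of 15 windows, against 6.05%). The ETS match was in 2 of 15 windows (3.89% of all) and the NRF1 match in 2 of 15 (4.6% of all). None of these matches overlapped a match to another of the motifs. A match is a run of letters and was not tested as a binding site. The GC box letters contain a CpG dinucleotide, and the shares over all windows were not matched for CpG content. Over the whole windows of 300 bases, Kansl2 held 26 CpG dinucleotides, Mcrs1 28 and the more upstream Kat8 window 12, against a median of 7 over all windows. Another Kat8 window, chr7:127912764-127913063, held 5 CpG dinucleotides, 2 CCAAT matches, 1 GC box match and no ETS match.

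Levels can be compared between genes only per length. Divided by the kilobases of merged GENCODE M21 exons, the subunit transcripts spanned a 91.5-fold range. Phf20, whose protein binds methylated lysines through Tudor domains, led with 70.3 ± 6.65 CPM per kilobase (SD, n = 6 libraries), and Kansl3 was lowest with 0.768 ± 0.226. Wdr5, the WD-repeat platform that the NSL complex shares with the MLL and SET methyltransferases, followed at 22.1 ± 2.10. Ogt, the enzyme that attaches N-acetylglucosamine to serines and threonines, came next at 15.6 ± 2.16. These first 3 steps of the order were clear of each other and of the rest, with no overlap between the ranges of neighbouring genes.

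The middle of the order was not resolved. Mcrs1 stood at 7.37 ± 0.898, Kansl1l at 6.44 ± 0.361, Kat8 at 5.62 ± 1.68 and Kansl2 at 5.44 ± 2.63 CPM per kilobase, and the ranges of neighbours overlapped, as did those of Kansl2 and Hcfc1 (SD, n = 6). Hcfc1, a chromatin adaptor that OGT cleaves during its maturation, stood at 3.68 ± 0.563, and Kansl1 at 2.14 ± 0.484. The scaffold gene Kansl1 and its paralogue were thus unequal. Kansl1l, the paralogue of Kansl1, was 3.01 times as abundant per kilobase, and higher in 6 of 6 libraries. Phf20 stood 12.5 times above Kat8, with a ratio between 9.04 and 20.1 in single libraries.

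**Figure D1:**
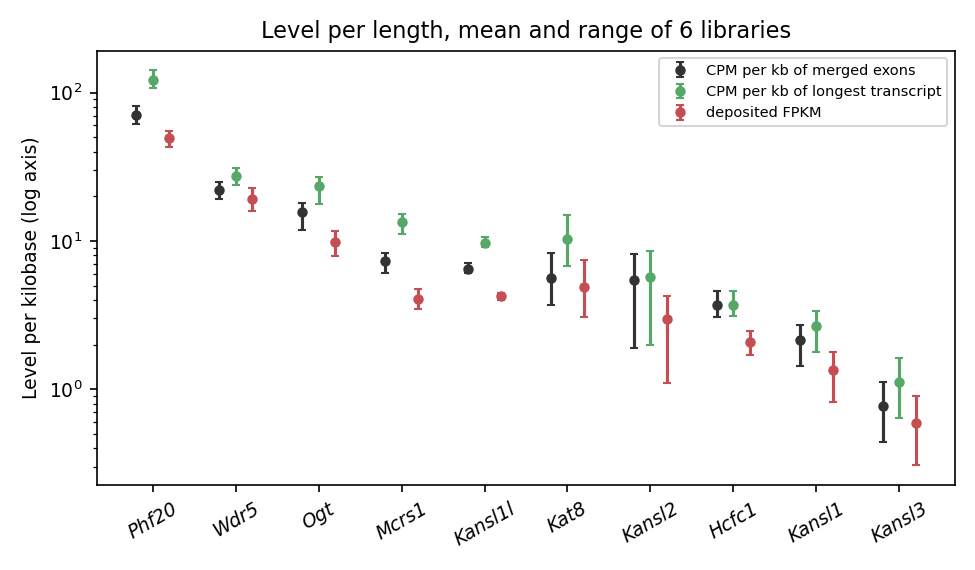
Level per kilobase (log axis) of the 10 subunit genes, as mean and range over 6 libraries, for 3 definitions of length. Phf20 is highest and Kansl3 lowest with each of them, while Kat8, Mcrs1 and Kansl1l change places.

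The order of the middle genes depended on the length used. With the longest annotated transcript Kat8 ranked 5 instead of 6, and with the deposited FPKM values it ranked 4 and Mcrs1 ranked 6 instead of 4. With the longest transcript the ranges of Wdr5 and Ogt and those of Hcfc1 and Kansl1 overlapped as well, and with the deposited FPKM those of Hcfc1 and Kansl1 and of Kansl1 and Kansl3. The ranks of Phf20, Wdr5, Ogt, Kansl2, Hcfc1, Kansl1 and Kansl3 were equal in all 3 orders.

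Kansl2 encodes one of the subunits named for the complex (ENSMUSG00000022992, GRCm38 chromosome 15, 98517658 to 98534264, minus strand). Its reads numbered 261, 246 and 299 in control replicates 1 to 3 and 75, 204 and 99 in metformin replicates 1 to 3. Scaled, these were 27.4, 27.8 and 30.9 CPM in the controls and 7.13, 20.0 and 10.1 CPM with metformin. Every metformin library lay below every control library, and metformin replicate 2 lay between the control libraries and the other metformin libraries. Exact Poisson 95% intervals cover counting error only and treat reads as independent, which PCR reads are not. Those of control and metformin libraries did not overlap. They come from the same counts that led to the choice of the complex and add no support to the difference. The interval of metformin replicate 2 ran from 17.4 to 23.0 CPM, the lowest control bound was 24.2 CPM, and the highest bound of the other metformin libraries was 12.3 CPM.

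**Figure D2:**
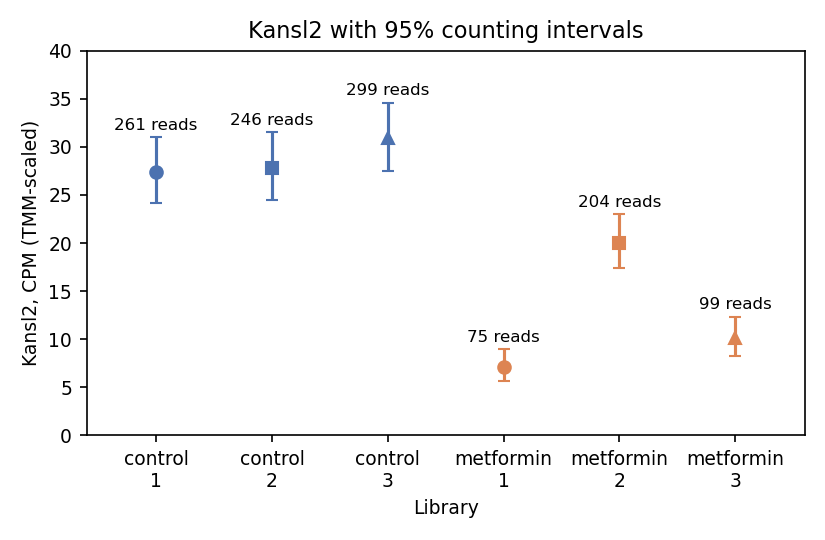
Kansl2 level (CPM, linear axis from 0) in each library, with exact Poisson 95% intervals and the number of reads. The control libraries sit between 27.4 and 30.9 CPM and the metformin libraries at 7.13, 20.0 and 10.1 CPM.

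The group means were 28.7 ± 1.89 CPM in the controls and 12.4 ± 6.75 CPM with metformin (SD, n = 3). The fitted log2 fold change was -1.21 (SE 0.331), a 2.31-fold lower level. Relative to the control mean, metformin replicates 1, 2 and 3 held 24.8%, 69.8% and 35.3%. The control libraries were alike, with a coefficient of variation of 6.59%, and the metformin libraries were not, with 54.3%. Among the 3235 genes averaging between 10 and 40 CPM, the median coefficient of variation was 13.9% in control and 16.4% in metformin libraries, and 97.9% of these genes varied less than Kansl2 among the metformin libraries. A more negative log2 fold change was fitted for 11 of the 6668 genes with a mean of 10 CPM or more. That rank comes from the counts that led to the choice of the complex and adds no support to the difference.

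The size of the Kansl2 difference turned on single metformin libraries. Without metformin replicate 2 the log2 fold change was -1.73 (SE 0.237), and without metformin replicate 1 it was -0.93 (SE 0.265). Leaving out control replicate 1, the library with the haemoglobin reads, gave -1.24 (SE 0.388).

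The count table does not resolve isoforms, and strand was not kept. GENCODE M21 lists 5 transcripts of Kansl2, 3 of them coding and 1 with a retained intron. Its only exonic overlap with another gene is with the small nucleolar RNA gene Snora2b, over 92 bases, and Snora2b had 1 read in all 6 libraries together. Ccnt1, the next protein-coding gene on the chromosome, lies 4424 bases from the 5′ end of Kansl2 and was looked up after the values were seen. It stood at 29.8 ± 2.98 CPM in the controls and 31.2 ± 2.66 CPM with metformin (SD, n = 3). The Ccnt1 means differed by less than either SD.

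Of the 10 subunit genes, 0 passed edgeR's quasi-likelihood test of metformin against control at an adjusted p under 0.05, where 0.0391% of all 12793 genes tested passed, 0.0235% as higher and 0.0156% as lower. DESeq2 and limma-voom also called 0. At an unadjusted p under 0.05 each of the 3 tools counted 1 of 10, Kansl2, the gene for which the complex was chosen. Of all genes 1.5% were under it by edgeR, 1.06% by DESeq2 and 1.83% by limma-voom. Without metformin replicate 2, Kansl2 was among the 11 genes called by edgeR, 0.0833% of those tested. This was the only setting in which a subunit gene was called, and it left out the metformin library nearest the controls. Of the subunit genes, 1 of 10 had no overlap between groups and was lower with metformin, where 5.63% of all genes tested had no overlap and 2.79% had none and were lower. The fitted differences were divided evenly, 5 higher and 5 lower, where 47.5% of all genes were fitted lower. Their median log2 fold change was 0.03, against 0.01 over all genes. Nothing is read from these counts, since the contrast itself led to the choice of the complex.

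**Figure D3:**
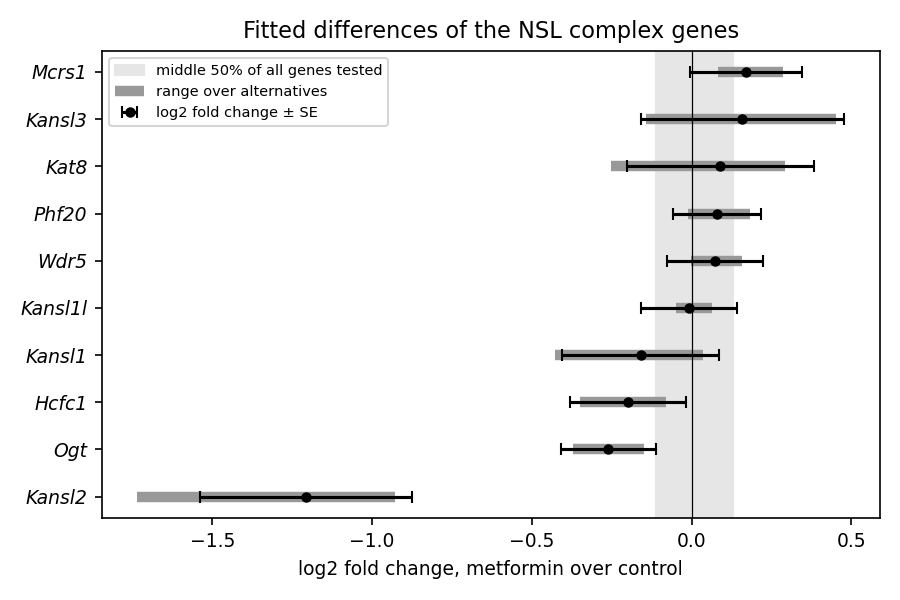
Log2 fold change of each subunit gene, metformin over control, with its SE (black), its range over 15 alternative settings (14 for Kansl3; dark grey) and the middle 50% of all genes tested (light grey, -0.11 to 0.13). Kansl2 lies at -1.21, and the other 9 genes lie within 0.5 of 0.

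The catalytic subunit gene Kat8 (chromosome 7, 127912516 to 127925837, plus strand) had 176, 159 and 104 reads in control and 250, 150 and 114 reads in metformin libraries. These were 18.5, 18.0 and 10.7 CPM in the controls and 23.8, 14.7 and 11.7 CPM with metformin. Control replicate 3 and metformin replicate 3 were low, metformin replicate 1 was high, and the groups overlapped. The log2 fold change was 0.09 (SE 0.292). Kat8 shares 122 exonic bases with Prss8 on the other strand, 4.22% of its exons, and Prss8 had 55 to 104 reads.

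The scaffold gene Kansl1 lies on chromosome 11 (104333229 to 104468861, minus strand). Its level was 14.3, 18.4 and 13.8 CPM in the controls and 18.5, 13.3 and 9.82 CPM with metformin. The groups overlapped, with a log2 fold change of -0.16 (SE 0.245). Its paralogue Kansl1l (chromosome 1, 66719248 to 66817562, minus strand) was the steadiest of the 10, at 41.1, 40.7 and 47.2 CPM in the controls and 41.6, 43.2 and 43.5 CPM with metformin. The highest Kansl1l library was 1.16 times the lowest, against 1.89 times for Kansl1 and 4.33 times for Kansl2. The Kansl1l log2 fold change was -0.01 (SE 0.149). Of its exons 8.37% overlap Rpe, an enzyme gene of the pentose phosphate pathway on the other strand, with 130 to 224 reads. Reads of such shared bases cannot be assigned to a strand. Gm38162, which overlaps 16.7% of the Kansl1l exons, had 0 to 2 reads.

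Kansl3, whose protein also binds microtubule minus ends, was the least abundant (chromosome 1, 36335730 to 36369181, minus strand). Its reads numbered 46, 48 and 43 in control and 79, 60 and 29 in metformin libraries, or 4.84, 5.43 and 4.44 CPM against 7.51, 5.89 and 2.97 CPM. The metformin libraries enclosed the control libraries, and the log2 fold change was 0.16 (SE 0.319). Mcrs1 encodes a subunit shared with the INO80 remodelling complex (chromosome 15, 99242817 to 99251961, minus strand). Its level was 21.4, 23.4 and 28.1 CPM in the controls and 28.2, 24.6 and 29.3 CPM with metformin. Its groups overlapped, with a log2 fold change of 0.17 (SE 0.176).

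**Figure D4:**
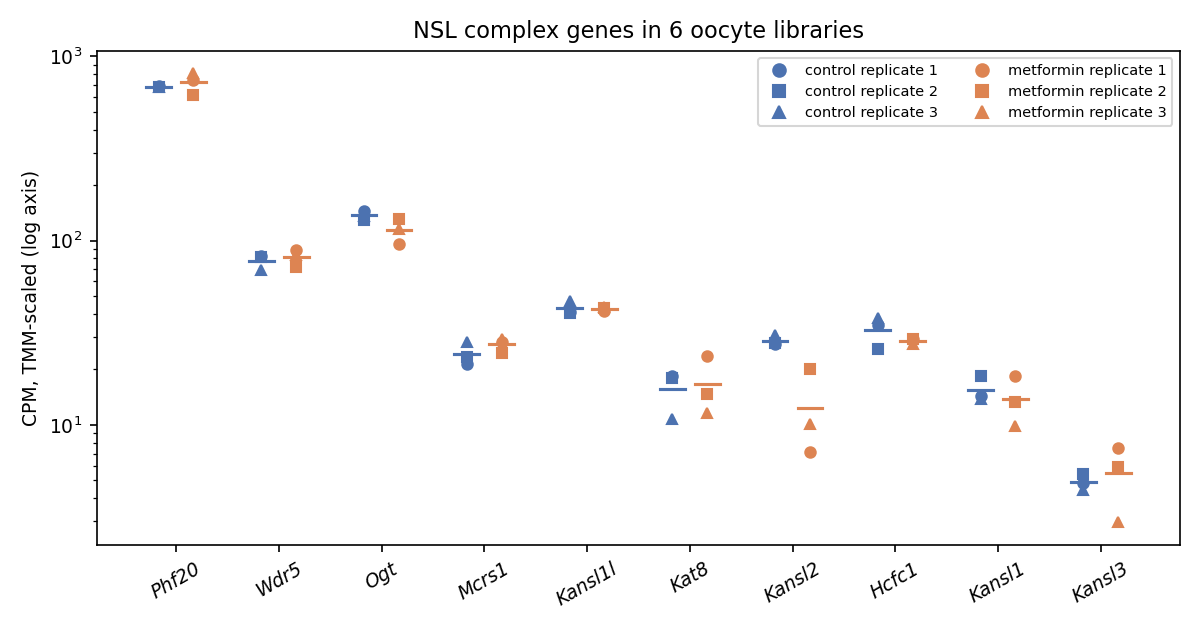
Level of the 10 subunit genes in every library (CPM, log axis, not corrected for length), with horizontal bars at the group means of 3 libraries. Kansl2 is the gene whose metformin points all lie below its control points.

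Phf20 (chromosome 2, 156196466 to 156309952, plus strand) stood at 693, 679 and 677 CPM in the controls and 743, 614 and 809 CPM with metformin. Its control libraries differed by a coefficient of variation of 1.29% and its metformin libraries by 13.7%, with the control values inside the metformin range. The Phf20 log2 fold change was 0.08 (SE 0.138). Wdr5 (chromosome 2, 27515157 to 27536535, plus strand) stood at 82.0, 81.5 and 69.2 CPM in the controls and 89.2, 72.01 and 83.8 CPM with metformin, with a log2 fold change of 0.07 (SE 0.150). Its groups overlapped too.

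Hcfc1 and Ogt, which both lie on the X chromosome, had the most negative differences after Kansl2. Hcfc1 (73942792 to 73966357, minus strand) had levels of 34.7, 25.8 and 38.1 CPM in the controls and 29.4, 29.2 and 27.3 CPM with metformin, and its log2 fold change was -0.20 (SE 0.181). Control replicate 2 was its lowest library. Ogt (101640060 to 101684351, plus strand) stood at 145, 130 and 136 CPM in the controls and 95.7, 131 and 116 CPM with metformin. Its groups overlapped only between metformin replicate 2 at 130.8 CPM and control replicate 2 at 129.6 CPM, and its log2 fold change was -0.26 (SE 0.150). For both genes the fitted difference was negative in all 15 alternative settings. These settings refit the same libraries and are not independent support.

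The way the libraries spread also differed between genes. Within the metformin group, Kansl1, Kansl3, Kat8 and Hcfc1, 4 of the 10, were highest in replicate 1 and lowest in replicate 3, as were 22.0% of all genes tested. The step between these libraries was 1.28 on the log2 scale for Kansl3, 1.02 for Kat8, 0.90 for Kansl1 and 0.10 for Hcfc1. Kansl2 and Ogt had another order within that group, lowest in replicate 1 and highest in replicate 2. Relative to Kansl1l, picked as the steadiest subunit gene, Kansl2 per kilobase stood at 1.18, 1.20 and 1.15 in control libraries. In metformin libraries it stood at 0.302, 0.817 and 0.410. Relative to Kansl1 the groups overlapped, with 2.742 in control replicate 2 and 2.745 in metformin replicate 2. Relative to each of the other subunit genes they did not overlap. All these ratios share the Kansl2 counts that led to the choice of the complex, so they add no support to its difference.

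**Figure D5:**
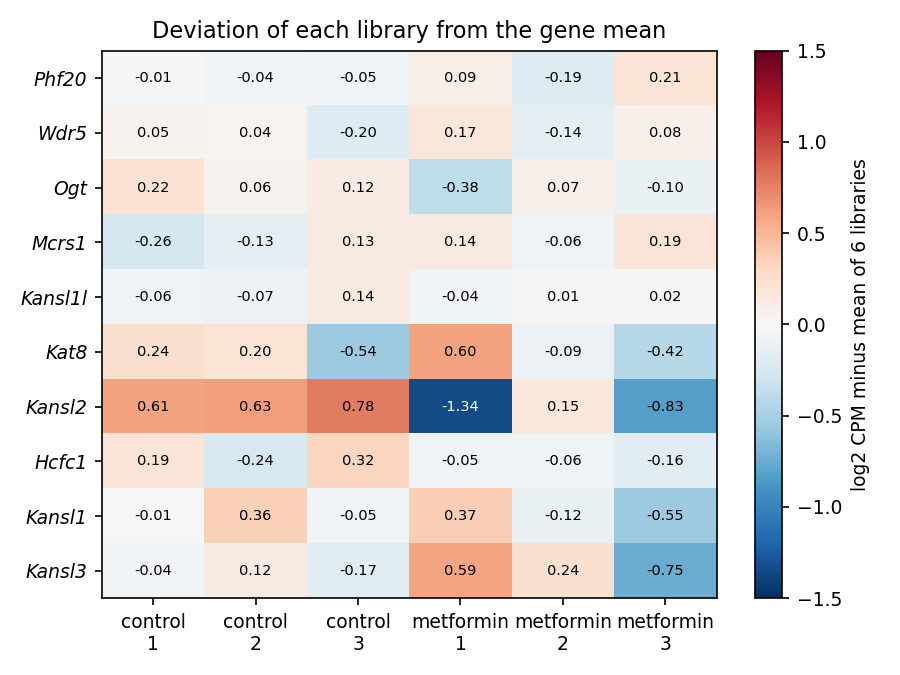
Deviation of each library from the mean log2 CPM of the gene over 6 libraries, with the value in each cell. Kansl2 runs from 0.78 in control replicate 3 to -1.34 in metformin replicate 1, and Kansl1, Kansl3 and Kat8 are positive in metformin replicate 1 and negative in metformin replicate 3.

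Over the 6 libraries the genes whose log2 CPM followed that of Kansl2 most closely, among 6667 others averaging at least 10 CPM, were Papss1 (Pearson r = 0.995), Ntpcr (0.982), Phf6 (0.976), Fbxo33 (0.972) and Trmt10c (0.967). All share the same 6 libraries and were picked as the closest of all these, so the values are descriptive only. Most moved over a far smaller range. From lowest to highest library Papss1 spanned 0.37 on the log2 scale and Phf6 0.14, whereas Kansl2 spanned 2.08. Fbxo33, an F-box protein gene, spanned 1.47. It stood at 77.8, 65.1 and 89.7 CPM in the controls and 32.2, 66.9 and 42.2 CPM with metformin, and its groups overlapped. For Papss1, Ntpcr, Phf6 and Trmt10c every metformin library lay below every control library, as for 2.79% of all genes tested. They were picked for following Kansl2, so this adds no support.

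Genes that work beside the complex were counted from 7 lists with 70 members, of which 60 were tested. By edgeR 0 of the 60 passed in either direction, where 0.0391% of all genes did, and DESeq2 and limma-voom also called 0. Each tool counted 1 of the 60 at an unadjusted p under 0.05, Tet1 by edgeR and limma-voom and Kdm6a by DESeq2. Over all genes the shares were 1.5% by edgeR, 1.06% by DESeq2 and 1.83% by limma-voom. Of the 60, 37 were fitted higher by edgeR and 23 lower, where 47.5% of all genes were fitted lower. The median log2 fold change was 0.04. A size of 1 was reached by 0 of the 60 with edgeR and with DESeq2, and by 1 with limma-voom. No overlap between groups was seen for 2 of the 60, where 5.63% of all genes had none. These were Tet1 and Hdac3, both below 10 CPM and named after their values were seen.

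The MSL complex is the other home of KAT8. All 3 of its genes were tested, 2 of them fitted higher and 1 lower, and the median log2 fold change was 0.10. Msl1, the scaffold of that complex, stood at 64.3 ± 3.23 and 70.9 ± 8.32 CPM, and Msl3, its chromodomain subunit, at 124 ± 3.92 and 111 ± 14.1 CPM in the controls and metformin libraries (SD, n = 3). Per kilobase Msl3 was 7.26 times as abundant as Kat8 and Msl1 2.21 times, each in 6 of 6 libraries. The scaffold Kansl1 of the NSL complex stood below Kat8 and below Msl1.

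The list of paralogues and of the enzyme opposing OGT had 3 of 4 genes tested, 3 fitted higher and 0 lower, with a median of 0.06. Phf20l1, the paralogue of Phf20, stood at 66.6 ± 8.11 and 71.6 ± 4.16 CPM and Hcfc2, the paralogue of Hcfc1, at 18.7 ± 7.60 and 19.4 ± 2.46 CPM (SD, n = 3). Per kilobase Phf20 was 17.8 times as abundant as Phf20l1, in 6 of 6 libraries. Hcfc1 and Hcfc2 were near equal per kilobase of merged exons, with Hcfc2 higher in 3 of 6 libraries. By the deposited FPKM they were less alike, with means of 2.07 for Hcfc1 and 3.00 for Hcfc2. Ogt was 6.61 times as abundant per kilobase as Oga, which encodes the enzyme that removes the sugar OGT attaches and which GENCODE M21 lists as Mgea5.

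In the list of WDR5-containing methyltransferase complexes 12 of 15 genes were tested, 7 fitted higher and 5 lower, with a median of 0.10. Kdm6a, a histone demethylase gene, stood at 247 ± 108 and 174 ± 11.1 CPM (SD, n = 3), and control replicate 3 alone was high, at 371 CPM against 180 and 189 in the other control libraries. Cxxc1, which encodes a CpG-binding subunit of the SET1 complexes, stood at 20.3 ± 2.98 and 25.2 ± 11.8 CPM, with metformin replicate 1 high at 38.7 CPM. In the INO80 list 12 of 13 genes were tested, 7 fitted higher and 5 lower, with a median of 0.03. Uchl5 stood at 30.6 ± 2.58 and 34.0 ± 5.07 CPM and Actr8 at 28.8 ± 5.53 and 31.8 ± 8.97 CPM (SD, n = 3).

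In the list of HCFC1 and OGT partners all 11 genes were tested, 7 fitted higher and 4 lower, with a median of 0.01. Bap1, the deubiquitinase gene of that list, varied most among the named genes. It had 42, 30 and 221 reads in control and 332, 50 and 31 reads in metformin libraries. Control replicate 3 and metformin replicate 1 were high, so that the log2 fold change of 0.37 had an SE of 1.28. Asxl1, which encodes a BAP1 partner, stood at 78.4 ± 8.74 and 88.2 ± 22.0 CPM (SD, n = 3). Tet1, a methylcytosine oxidase gene, had 30, 34 and 35 reads in control and 6, 23 and 26 reads in metformin libraries, and every metformin library lay below every control library in CPM.

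Among the other lysine acetyltransferases 10 of 11 genes were tested, 6 fitted higher and 4 lower, with a median of 0.06. Kat6a stood at 46.4 ± 7.24 and 51.4 ± 13.0 CPM and Ep300, the p300 gene, at 59.9 ± 3.08 and 64.1 ± 13.4 CPM (SD, n = 3). Per kilobase Kat8 was 2.14 times as abundant as Kat5 and lower than Kat7, which encodes the acetyltransferase HBO1 and was 1.87 times as abundant, both in 6 of 6 libraries. Among the histone deacetylases 9 of 13 genes were tested, 5 fitted higher and 4 lower, with a median of 0.02. Sirt1 stood at 94.5 ± 4.12 and 88.1 ± 26.7 CPM and Hdac4 at 11.2 ± 0.309 and 10.3 ± 1.55 CPM (SD, n = 3). Hdac5 and Hdac10 had no read in any library, where 3 reads correspond to 0.285 to 0.339 CPM.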

How the data were processed

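RNA of 3 control and 3 metformin oocyte libraries was sequenced from SMART-Seq HT cDNA, per the labels' protocols, a poly(A)-primed kit that keeps neither strand nor molecular identifiers. CASAVA 1.8, TopHat2 2.0.6 and the mm10 build are named in the submitters' processing notes. For the counting program the name is not given in the sources used here. Per the file headers, the authors deposited raw read counts and FPKM values for 55487 Ensembl genes. Symbols from GENCODE M21 matched 55141 of them, and 1 listed gene was matched through an older symbol. No test used the deposited FPKM.

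The initial and number of each title gave the column of its sample. Counts were analysed with edgeR 4.0.16 in R 4.3.3, with TMM scaling, filterByExpr at a minimum count of 10, a robust quasi-likelihood fit on group alone, and p-values adjusted by Benjamini-Hochberg over 12793 genes with a threshold of 0.05. SEs were derived from the fold change and the root of its F statistic. Alternatives used DESeq2 1.42.0, limma 3.58.1, other scalings and filters, a replicate block and leaving out each library. Total counts were 8622281 to 10588292. Intervals cover counting error only, since PCR reads are not independent molecules.

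The labels name separate samples without saying that they came from separate animals or cultures, so p-values cover only the spread between these libraries, possibly a technical one. There was no spike-in, and a lower level cannot tell fewer oocytes with a transcript from less of it per oocyte. The kit primes on poly(A) tails, whose length was not measured, so a level counts only transcripts captured that way. The members and lists were chosen with earlier results of these data known. Named genes were all 10 subunit genes, the 2 genes of each related list with the largest absolute log2 fold change among those averaging at least 10 CPM, the 5 genes most correlated with Kansl2 (log2 CPM, prior count 2), and genes sharing exons with a subunit gene. Ccnt1, Oga, Kat5, Kat7, Hdac3, Hdac5, Hdac10 and Tet1 fall outside this rule and were chosen after their values were seen. RefSeq promoters (GRCm38.p6) matched all 10 subunit genes. Protein sequences were not used here.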

Additional observations from a re-analysis of the deposited data

How the results depend on the processing

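The number of genes past the threshold was 5, and 4 to 7 with other scalings, filters, limma-voom, a fit without robust estimation or the replicate block. DESeq2 called 9. Leaving out 1 library gave between 5 and 12. Fitted lower were 5 of the 10 subunit genes in the main analysis and 5 or 6 in every alternative run. All 149 alternative log2 fold changes of subunit genes lay within 1 pooled SD of the main value. That bound is wide for variable genes, 0.531 for Kansl2, and leaving out 1 of 3 libraries can hardly exceed it. It is therefore not a test of stability. That of Kansl2 ranged from -1.73 to -0.93 and was negative in all 15 alternatives. The sign turned only where 1 library was left out. It turned without metformin replicate 1 for Kansl1l (0.01), Kansl3 (-0.14) and Kat8 (-0.25), and without metformin replicate 3 for Kansl1 (0.04) and Phf20 (-0.01). Without control replicate 3 it turned for Kansl1l (0.06) and Kat8 (-0.12) and for Wdr5, then within 0.01 of 0. It turned in no alternative for Kansl2, Hcfc1, Ogt and Mcrs1. With the filter at a mean of 10 CPM Kansl3 was not tested. The lengths used for the order of levels were chosen after seeing the data.

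Replicate numbers are shared by both groups, and the labels do not say whether they mark pairs. Deviations from the group means correlated at 0.168, 0.025 and 0.231 for replicates 1, 2 and 3 over 6668 genes. Between differently numbered libraries the correlations ran from -0.204 to 0.051. Each metformin replicate correlated best with the control of its own number, while control replicate 2 correlated best with metformin replicate 1 (0.051). These values do not decide whether the samples were paired. The replicate block gave 7 genes and a Kansl2 log2 fold change of -1.32 (SE 0.285).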

Other observations

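The deposited FPKM values of these genes rest on lengths that count shared exon bases more than once. Count and FPKM together imply a length of 6922 bases for Kansl2, 14823 for Hcfc1 and 3369 for Kat8, whereas their merged GENCODE M21 exons cover 3784, 8360 and 2891 bases. Among the 5849 genes that reached 100 counts in each library, the implied length lay within 0.5% of the sum of all distinct annotated exons for 97.5%, and within 0.5% of the merged exons for 14.0%. This held for all 10 subunit genes. The ratio of implied to merged length had a median of 1.32 and a 95th percentile of 2.16. Levels compared between genes by the deposited FPKM are therefore lowered most for genes with many overlapping exon variants. Comparisons of 1 gene between libraries are not touched.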
